A study of Caenorhabditis elegans with 22 samples.

Results

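The comparison described here set worms held for 4 h in buffer with 5% (v/v) ethanol against worms held for 4 h in the same buffer with 0% ethanol. It rests on 6 of the 22 libraries of the series, 3 ethanol and 3 control libraries, chosen by concentration and time in the labels, and it covered the 15310 of 42048 genes that passed a count filter. RNA with polyA tails was sequenced from whole animals of Caenorhabditis elegans, wild-type strain N2. All worms came from bleached, synchronised populations raised on E. coli OP50 plates at 20 °C, then about 1500 per sample were washed off the bacteria into S-basal, a salt buffer for which the protocol names no food. Both 4 h groups therefore shared the move from bacteria to buffer, and the time zero group (4 libraries, used here for context with the 1 h and 20 h groups of 3 libraries each) was collected without ethanol before it. The protocol calls the worms L3 larvae, while the series title names the L4 stage. The 3 libraries of a group are labelled as biological replicates without saying whether each was a culture of its own, so the p-values cover only the spread from library to library.

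Worms, like other animals, treat small foreign molecules in stages: cytochrome P450s, flavin-containing monooxygenases and short-chain dehydrogenases modify them, UDP-glucuronosyltransferases and glutathione S-transferases attach a soluble group, and ABC transporters export the product. Ethanol itself is oxidised by alcohol and aldehyde dehydrogenases to acetate. Unfolded protein in the endoplasmic reticulum (ER) activates a response that raises ER chaperones, and animals without food turn to stored lipid, which peroxisomes and mitochondria oxidise and the glyoxylate cycle can turn into sugar.

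The 6 libraries held 10908205 to 14176432 counts. Pairs of libraries of 1 group differed by a chi-square per degree of freedom of 2 to 4.1 among the controls and of 5.7 to 21.4 with ethanol, and on the main axis of variation within groups of the series (41.4% of the within-group variance) ethanol replicate 2 stood at 14.97 while its group mates stood at -6.98 and -7.99. Without that library, 4040 genes passed the threshold, against 4664 with it and 3843 to 3983 when any other 1 of the 6 libraries was left out. Genes that adult hermaphrodites are known to transcribe were abundant in worms labelled as larvae: the 6 yolk protein genes summed to 61210 to 69450 CPM (counts relative to library size, scaled by edgeR's TMM factors) in the controls and 34190 to 54090 CPM in ethanol, and the 24 oocyte and eggshell genes to 7526 to 7970 and 5926 to 7874 CPM. These values go against the larval labels, so the stage is given only as labelled. In such whole-animal samples, fewer cells of a type and less RNA per cell cannot be told apart.

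With ethanol at 4 h, 2612 genes (17.1% of those tested) were higher and 2052 (13.4%) were lower, 30.5% in all, at an adjusted p under 0.05 (edgeR's quasi-likelihood test, Benjamini-Hochberg adjusted), the test behind each adjusted p below. "Rose", "fell", "higher" and "lower" below refer to ethanol against the 4 h control unless time zero is named. In 4283 genes (28%) all ethanol libraries lay above all controls, and in 4031 (26.3%) all lay below. The median log2 fold change of all genes tested was 0.0011, and among the genes past the threshold the median size was 1.26, with 1706 rises and 1291 falls of at least 1 and 88 rises and 53 falls of at least 5. Of the 4664 genes, 524 had under 10 counts over the 3 libraries of one group, and their fold changes carry large counting error.

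**Figure D1:**
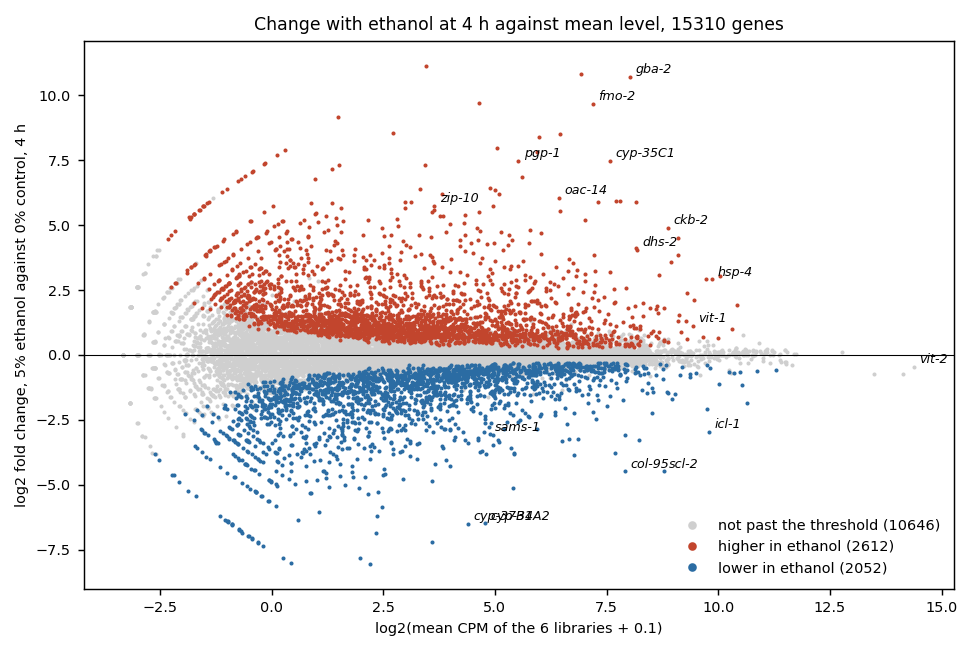
Log2 fold change with ethanol at 4 h (vertical axis) against log2 of the mean CPM of the 6 libraries plus 0.1 (horizontal axis), 1 point per gene, for 15310 genes. Red points are the 2612 genes that were higher and blue points the 2052 that were lower; among genes of high mean level, ckb-2, hsp-4 and fmo-2 stand above 0 and icl-1, scl-2 and col-95 below.

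Genes of foreign-compound metabolism and transport made up 6 of the 12 largest rises, all from low controls. Transcripts of gba-2, which encodes a relative of the lysosomal enzyme glucocerebrosidase, stood at 0.261, 0.412 and 0.211 CPM in control replicates 1, 2 and 3 and at 569.7, 480.5 and 508 CPM in ethanol replicates 1, 2 and 3 (log2 fold change 10.72 ± 0.25 (SE), adjusted p = 7.15e-17). The flavin-containing monooxygenase gene fmo-2 stood at 0.348, 0.480 and 0.211 CPM in the controls and 309, 257 and 305 CPM in ethanol (log2 fold change 9.67 ± 0.54 (SE), adjusted p = 5.01e-11). In both genes every ethanol library lay far above every control, and the controls were below 1 CPM. The UDP-glucuronosyltransferase gene ugt-33 went from 0.261, 0.275 and 0.843 CPM to 181, 159 and 186 CPM (log2 fold change 8.52 ± 0.41 (SE), adjusted p = 6.26e-12). The P450 gene cyp-13A12 was at 0.261, 0.412 and 0.422 CPM without ethanol and 138, 121 and 122 CPM with it (log2 fold change 8.38 ± 0.30 (SE), adjusted p = 1.28e-13). Neither gene had overlapping groups, and ethanol replicate 2 was the lowest of the 3 ethanol libraries for ugt-33, gba-2 and fmo-2. The P450 gene cyp-35C1 was at 1.66, 1.78 and 2.95 CPM in the controls and 397, 334 and 415 CPM in ethanol (log2 fold change 7.47 ± 0.28 (SE), adjusted p = 1.48e-13), although it had stood at 45.6 ± 5.24 CPM (SD, n = 4) at time zero. The ABC transporter gene pgp-1, a P-glycoprotein, likewise started at 4.68 ± 1.43 CPM, was at 0.697, 0.412 and 0.422 CPM in the controls and reached 95.9, 91.2 and 86.9 CPM in ethanol (log2 fold change 7.49 ± 0.59 (SE), adjusted p = 6.60e-09). For both, the control lay below the starting level and ethanol above it. The rest of the 12 largest rises were the C-type lectin gene clec-210 (7.99 ± 0.31), F08G2.5 (7.81 ± 0.42), B0205.13 (6.85 ± 0.48), F19B10.13 (6.43 ± 0.37), the phospholipid acyltransferase gene bus-18 (6.37 ± 0.41) and ugt-14 (6.19 ± 0.29), the last of the 6 foreign-compound genes, all log2 fold changes ± SE with adjusted p of 1.09e-09 or less.

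In most families of modifying enzymes, conjugating enzymes and exporters, the share of members that rose was above the 17.1% of all genes. Of 65 cytochrome P450 genes tested, 36 rose and 10 fell, with a median log2 fold change of 1.69 against 0.0011 for all genes. Their summed level was 678.7 to 798.4 CPM at time zero, 1172 to 1228 CPM in the 4 h controls and 3024 to 3444 CPM in ethanol, so the ethanol libraries lay above both other groups. Of 62 UDP-glucuronosyltransferase genes 28 rose and 10 fell (median 0.61). Their sum was 1630 to 2156 CPM at time zero, 854.3 to 892.4 CPM in the controls and 2328 to 2821 CPM in ethanol. ugt-16 was at 7.49, 7.21 and 6.75 CPM in the controls and 442, 386 and 483 CPM in ethanol (log2 fold change 5.93 ± 0.43 (SE), adjusted p = 2.15e-09), with no overlap. Glutathione S-transferases were divided, with 19 of 45 higher and 10 lower. gst-33 went from 1.92, 1.58 and 1.19 to 58.1, 38.01 and 43.4 CPM. gst-24 went from 4.01, 2.33 and 3.09 to 84.1, 72.5 and 72.5 CPM. gst-4, a widely used reporter of the oxidative stress factor SKN-1, went from 2.35, 2.81 and 3.16 to 16.9, 12.09 and 15.1 CPM (log2 fold change 2.40 ± 0.26 (SE), adjusted p = 5.32e-07), below its 39.2 ± 7.86 CPM at time zero. All 3 genes had every ethanol library above every control.

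Both flavin-containing monooxygenase genes past the threshold, of 5 tested, were higher. fmo-5 was the more abundant in reads, at 42.4, 42.1 and 53.8 CPM in the controls and 1084, 1082 and 992 CPM in ethanol (log2 fold change 4.51 ± 0.22 (SE), adjusted p = 6.70e-12). Among 32 short-chain dehydrogenase genes 9 rose and 7 fell, and their sum was 1686 to 1761 CPM in the controls and 2823 to 3421 CPM in ethanol. dhs-19 went from 71.4, 64.2 and 76.9 to 1066, 855 and 1130.4 CPM (log2 fold change 3.84 ± 0.25 (SE), adjusted p = 2.32e-10), with no overlap. The other named members, dhs-2 (4.05 ± 0.19) and dhs-23 (5.40 ± 0.33), rose by similar or larger factors. Of 49 ABC transporter genes 21 rose and 4 fell; DESeq2 called 8 lower and the fit limited to the 6 libraries 7. Beside pgp-1, pgp-8 went from 0.436, 0.343 and 0.703 to 25.3, 22.5 and 24.9 CPM (log2 fold change 5.58 ± 0.34 (SE), adjusted p = 1.47e-10). The peroxisomal half-transporter gene pmp-4 went from 8.28, 10.7 and 9.63 to 73.9, 64.8 and 53.7 CPM. Neither gene had overlapping groups. Genes of these families lie in clusters of similar sequence, and the sources used here do not say how reads that fit several of them were counted.

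**Figure D2:**
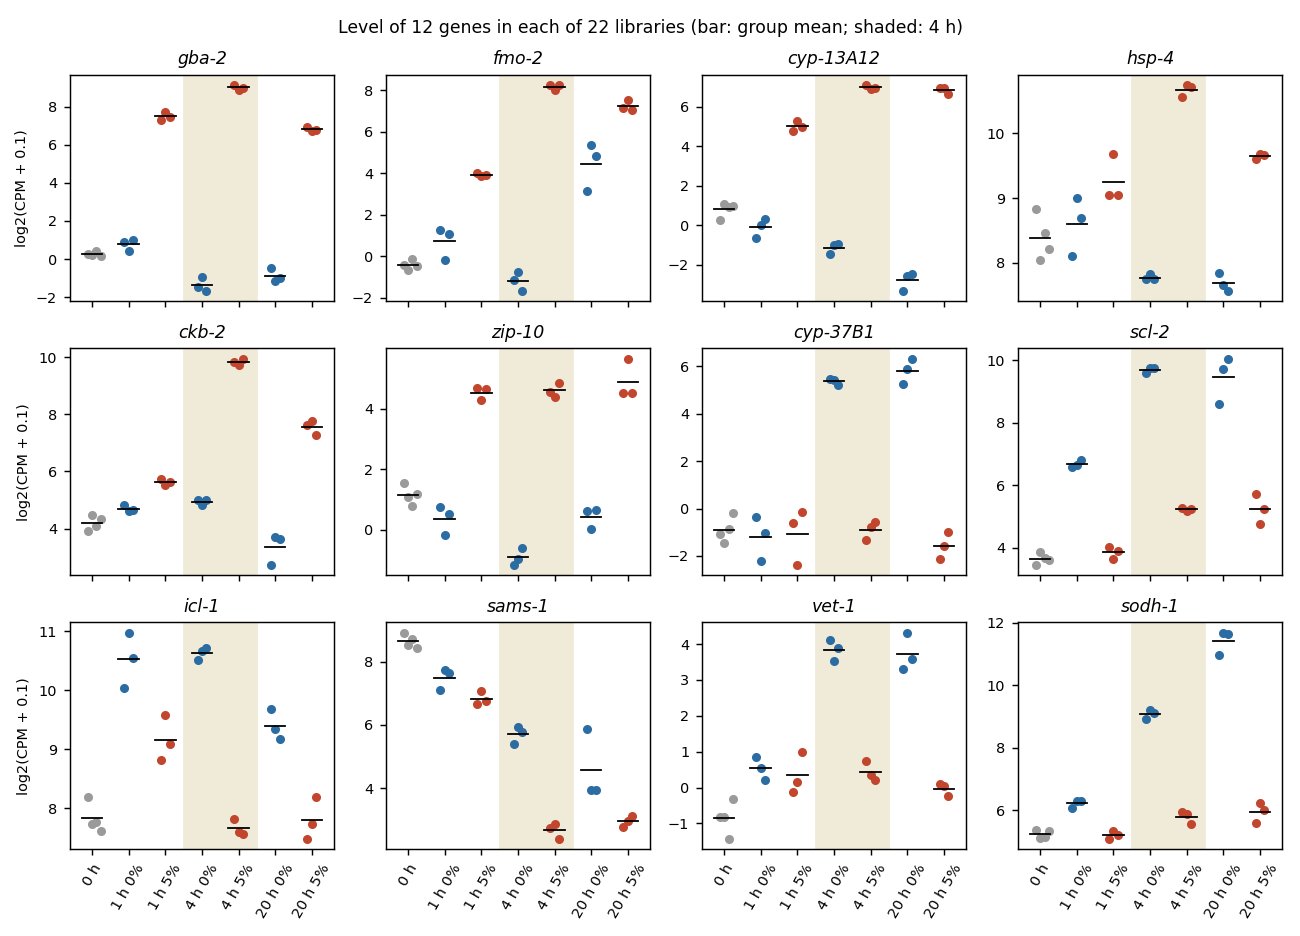
Level of 12 genes as log2(CPM + 0.1) in each of the 22 libraries, by group along the horizontal axis (time in h and ethanol in %), with grey points for time zero, blue for control and red for ethanol, a bar at each group mean and the 4 h groups shaded. For gba-2, fmo-2, cyp-13A12, hsp-4, ckb-2 and zip-10 the red points at 4 h lie above the blue, and for cyp-37B1, scl-2, icl-1, sams-1, vet-1 and sodh-1 they lie below.

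Several of the largest falls were genes that were low at time zero and high in the 4 h control, and that in ethanol stood nearer their starting level. The P450 gene cyp-37B1 stood at 0.466 ± 0.218 CPM (SD, n = 4) at time zero, 44.1, 42.96 and 37.2 CPM in the controls and 0.296, 0.486 and 0.572 CPM in ethanol (log2 fold change -6.50 ± 0.43 (SE), adjusted p = 3.26e-10). scl-2, which encodes a secreted protein of the SCP family, was at 12.5 ± 1.56 CPM at time zero, 775, 872 and 867 CPM in the controls and 38.6, 36.2 and 37.7 CPM in ethanol (log2 fold change -4.48 ± 0.29 (SE), adjusted p = 3.26e-10). For the cuticle collagen gene col-95 the values were 25.6 ± 2.72, then 471, 447 and 467, and 21.9, 20.1 and 20.0 CPM (log2 fold change -4.48 ± 0.23 (SE), adjusted p = 1.10e-11). In these 3 genes no ethanol library reached any control. A low start and a high control were also seen in the P450 gene cyp-34A2, at 1.96 ± 0.332 CPM at time zero, 52.3, 54.6 and 55.0 CPM in the controls and 0.444, 0.764 and 0.572 CPM in ethanol (log2 fold change -6.48 ± 0.28 (SE), adjusted p = 1.07e-12). sepa-1, which encodes an autophagy substrate that binds P granule protein in embryos, was at 0.336 ± 0.107 CPM at time zero, 16.205, 13.7 and 13.8 CPM in the controls and 0.444, 0.903 and 0.163 CPM in ethanol (log2 fold change -4.79 ± 0.31 (SE), adjusted p = 2.32e-10). skr-9, a relative of the ubiquitin ligase subunit Skp1, was at 0.148 ± 0.179 CPM at time zero, 11.4, 6.73 and 11.7 CPM in the controls and 0.370, 0.208 and 0.163 CPM in ethanol (log2 fold change -5.26 ± 0.55 (SE), adjusted p = 2.73e-07). Its ethanol libraries, like those of sepa-1, lay within 1 CPM of the starting mean. The carnitine palmitoyltransferase relative cpt-5 differed, since its controls already lay below time zero: it stood at 99.8 ± 3.68 CPM at time zero, 33.8, 26.8 and 29.9 CPM in the controls and 1.48, 2.08 and 0.980 CPM in ethanol (log2 fold change -4.29 ± 0.54 (SE), adjusted p = 4.49e-06). cpt-4 (-4.84 ± 0.42), C48B4.1 (-5.12 ± 0.31), math-38 (-4.63 ± 0.35), pud-3 (-4.57 ± 0.37) and the early embryonic gene vet-6 (-4.41 ± 0.33) completed the 12 largest falls, with adjusted p of 1.91e-08 or less for these 5.

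Across all genes, 7068 (46.2%) differed between the 4 h control and time zero and 6002 (39.2%) between 4 h ethanol and time zero. Both comparisons share their libraries with each other and with the ethanol comparison, so their values stand here side by side only. cyp-37B1 differed from time zero by 6.45 on the log2 scale in the control and by -0.047 (adjusted p = 0.956) in ethanol. col-95 differed by 4.18 and -0.30 (adjusted p = 0.212). Rises with ethanol also included genes that the controls had lost since time zero: elo-5 differed from time zero by -4.64 in the control and -0.80 in ethanol, and cyp-35C1 by -4.40 and 3.07.

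Lipid genes moved in both directions, with enzymes of fatty acid oxidation mostly lower. Of 35 genes of fatty acid oxidation, 18 fell and 6 rose (median -0.30, against 13.4% of all genes lower). The falls included members of the carnitine palmitoyltransferase family, which brings acyl chains into mitochondria. cpt-4 was at 23.8, 21.6 and 24.2 CPM in the controls and 0.592, 0.625 and 1.23 CPM in ethanol. cpt-3 was at 7.93, 5.01 and 7.10 CPM in the controls and 1.70, 1.46 and 0.572 CPM in ethanol. acdh-2, an acyl-CoA dehydrogenase gene, went the other way, from 6.53, 7.76 and 6.96 to 75.9, 63.2 and 87.1 CPM (log2 fold change 3.41 ± 0.27 (SE), adjusted p = 5.12e-09), and stood at 102 ± 14.3 CPM at time zero. The groups did not overlap in these 3 genes. Acyl-CoA synthetases, which activate fatty acids, were divided, with 6 of 21 higher and 7 lower. acs-14 fell from 170.3, 158 and 169 to 18.4, 15.5 and 16.09 CPM (log2 fold change -3.31 ± 0.14 (SE), adjusted p = 1.07e-12). acs-7 fell from 169, 172 and 168 to 25.2, 27.2 and 29.2 CPM. acs-2 rose from 4.62, 6.73 and 7.31 to 41.6, 44.8 and 37.3 CPM (log2 fold change 2.72 ± 0.41 (SE), adjusted p = 3.66e-05). Each had separate groups. Among 25 lipase genes 8 fell and 5 rose. The lysosomal lipase gene lipl-2 fell from 28.1, 28.3 and 27.4 to 4.74, 3.34 and 3.68 CPM (log2 fold change -2.83 ± 0.25 (SE), adjusted p = 2.80e-08). fil-1, named as a fasting-induced lipase, fell from 12.28, 13.2 and 10.8 to 1.18, 0.834 and 0.898 CPM. The lipase-related gene lips-10 rose from 34.6, 29.9 and 34.1 to 108, 87.9 and 96.9 CPM. No control overlapped an ethanol library in any of the 3.

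Genes that make fatty acids gave 7 rises and 5 falls among 26; a fit limited to the 6 libraries gave 13 rises. The rises held elo-5 and elo-6, elongases for branched-chain fatty acids, and fat-5, a palmitoyl-CoA desaturase. elo-5 was at 18.9, 19.8 and 20.2 CPM in the controls and 262, 223 and 356 CPM in ethanol (log2 fold change 3.84 ± 0.30 (SE), adjusted p = 4.22e-09), both groups below the 488 ± 82.3 CPM of time zero. elo-6 was at 51.8, 42.2 and 43.6 CPM in the controls and 163, 133 and 189 CPM in ethanol, against 722 ± 134 CPM at time zero. fat-5 was at 18.9, 15.2 and 15.4 CPM in the controls and 97.5, 89.5 and 105 CPM in ethanol. In all 3 genes ethanol lay above the control without overlap. The stearoyl-CoA desaturase gene fat-7, at 158, 203 and 194 CPM in the controls and 388, 275 and 315 CPM in ethanol (adjusted p = 0.0870), did not pass the threshold. Nor did the fatty acid synthase gene fasn-1, at 86.1, 94.98 and 85.0 CPM in the controls and 133, 148 and 141 CPM in ethanol (adjusted p = 0.399).

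In phosphatidylcholine synthesis, 4 of 17 genes rose (23.5%) and 6 fell (35.3%), against 17.1% and 13.4% of all genes. The choline kinase gene ckb-2 went from 31.7, 27.9 and 31.7 to 903, 849 and 983 CPM (log2 fold change 4.90 ± 0.23 (SE), adjusted p = 3.19e-12). A second choline kinase gene, ckb-4, went from 10.8, 9.54 and 10.2 to 31.2, 26.6 and 23.4 CPM. Both had separate groups. sams-1, whose product makes the methyl donor S-adenosylmethionine, fell from 41.99, 60.7 and 54.7 to 6.59, 7.23 and 5.15 CPM (log2 fold change -3.05 ± 0.39 (SE), adjusted p = 5.63e-06), and had stood at 405 ± 60.1 CPM at time zero. pmt-1, which methylates phosphoethanolamine, was at 1024, 1051 and 1079.8 CPM in the controls and 739, 699 and 779.6 CPM in ethanol (log2 fold change -0.51 ± 0.17 (SE), adjusted p = 0.0283), a call that was lost when any 1 of the 6 libraries was left out. The other falls were pmt-2 (-0.72), the phosphotransferase gene cept-1 (-0.73), C39D10.3 (-0.79) and sbp-1 (-1.19), the homologue of the mammalian lipogenic factor SREBP, named after their values were seen. Of 27 sphingolipid and glucosylceramide genes 6 rose (22.2%) and 2 fell (7.41%), not far from the shares of all genes, with a median of 0.039. The rises numbered 4 or 5 when any 1 library was left out and 9 in the fit limited to the 6 libraries. Beside gba-2, the glucosylceramide synthase gene cgt-1 went from 1.31, 1.44 and 2.32 to 10.8, 10.1 and 10.9 CPM (log2 fold change 2.63 ± 0.25 (SE), adjusted p = 6.43e-08). The serine palmitoyltransferase gene sptl-2 went from 4.88, 5.35 and 5.55 to 15.2, 13.9 and 15.9 CPM. gba-1, a relative of gba-2, stood at 40.2, 46.5 and 41.6 CPM in the controls and 56.1, 48.3 and 48.6 CPM in ethanol (adjusted p = 0.432).

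The genes most directly tied to ethanol oxidation did not rise as a group. Of 15 alcohol and aldehyde dehydrogenase genes 3 rose and 5 fell, and leaving out control replicate 3 or ethanol replicate 2 gave 3 falls. sodh-1, an alcohol dehydrogenase gene, was at 37.8 ± 3.52 CPM at time zero, 483, 596 and 549.9 CPM in the controls and 61.1, 59.1 and 47.3 CPM in ethanol (log2 fold change -3.28 ± 0.20 (SE), adjusted p = 1.27e-10). Ethanol therefore stood well below the control and near the starting level. The aldehyde dehydrogenase gene alh-4 rose from 183, 154 and 155 to 369, 368 and 333 CPM (log2 fold change 1.12 ± 0.21 (SE), adjusted p = 2.68e-04). Its relative alh-3 fell from 192, 184 and 197 to 85.0, 84.4 and 82.3 CPM. alh-1 stood at 294, 297 and 294 CPM in the controls and 249.6, 275 and 228 CPM in ethanol (adjusted p = 0.293), so the 3 aldehyde dehydrogenase genes named had no common direction. icl-1, the enzyme specific to the glyoxylate cycle, likewise stood well below the control in ethanol and near its starting level. It was at 229 ± 41.98 CPM at time zero, 1456, 1618 and 1675 CPM in the controls and 224, 193 and 189.6 CPM in ethanol (log2 fold change -2.97 ± 0.25 (SE), adjusted p = 1.38e-08). Among 26 genes of the glyoxylate cycle, the TCA cycle and gluconeogenesis, 3 fell and 1 rose in all, below the background shares, and the fit limited to the 6 libraries gave 7 falls. The isocitrate dehydrogenase gene idh-2 fell from 39.6, 39.2 and 39.0 to 16.9, 17.5 and 17.4 CPM. The cytosolic aconitase gene aco-1 rose from 82.0, 90.7 and 93.2 to 206, 182 and 176 CPM. Glycolysis gave 3 rises among 19 genes, the largest in pfk-1.2 (1.24 ± 0.17), and the fit limited to the 6 libraries gave 9 rises and 3 falls.

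Transporters and enzymes of osmolytes were called often, 8 of 22 higher and 5 lower, but a known marker of salt stress was not. gpdh-1, the glycerol-3-phosphate dehydrogenase gene that hyperosmotic salt induces, was at 0.174, 0.343 and 0.632 CPM in the controls and 0.592, 0.625 and 0.572 CPM in ethanol (adjusted p = 0.428), with overlapping groups, and both lay under its 10.46 ± 0.761 CPM at time zero. The inositol transporter gene hmit-1.3 fell from 87.2, 95.3 and 92.0 to 19.9, 16.3 and 16.6 CPM (log2 fold change -2.38 ± 0.18 (SE), adjusted p = 3.53e-09). The aquaporin gene aqp-1 fell from 42.3, 48.0 and 47.5 to 19.2, 15.2 and 15.9 CPM. In the opposite direction, the trehalase gene tre-2 rose from 59.5, 65.7 and 58.3 to 179, 207 and 202 CPM (log2 fold change 1.68 ± 0.18 (SE), adjusted p = 3.49e-07). Falls in this list numbered 3 when control replicate 1 or any 1 ethanol library was left out and 8 in the fit limited to the 6 libraries. In the methionine and folate cycle 6 of 18 genes fell and 3 rose, among the falls sams-1 and the cystathionine gamma-lyase gene cth-2, from 229, 241 and 234 to 82.6, 72.5 and 83.2 CPM.

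Chaperones of the ER rose almost as a whole. Of 15 ER chaperone and disulfide isomerase genes, 13 rose, against 17.1% of all genes, with a median log2 fold change of 1.93. Their sum was 4124 to 6341 CPM at time zero, 2741 to 2804 CPM in the controls and 11690 to 12060 CPM in ethanol. Both BiP genes rose: hsp-4 was at 214, 227 and 214 CPM in the controls and 1511, 1726 and 1684 CPM in ethanol (log2 fold change 2.91 ± 0.23 (SE), adjusted p = 4.78e-09), and hsp-3 at 192, 192 and 199.9 CPM in the controls and 1489, 1418 and 1587 CPM in ethanol (log2 fold change 2.94 ± 0.29 (SE), adjusted p = 1.24e-07). Both were low in all controls and high in all ethanol libraries. The disulfide isomerase gene pdi-6 went from 82.1, 72.1 and 72.3 to 906, 922 and 895 CPM (log2 fold change 3.59 ± 0.14 (SE), adjusted p = 4.19e-13). A second one, pdi-2, went from 227, 231 and 231 to 1894, 1729 and 2002 CPM. dnj-27, an ER DnaJ protein with thioredoxin domains, went from 18.3, 15.2 and 17.2 to 197, 208 and 192 CPM. Groups did not overlap in any of these 5 genes. xbp-1, the transcription factor that the sensor IRE-1 activates by splicing, rose from 169, 161 and 171 to 591, 670.0 and 595 CPM (log2 fold change 1.89 ± 0.16 (SE), adjusted p = 1.86e-08); the counts do not separate its spliced form. Of 17 sensors and degradation genes 5 rose, 11 in the fit limited to the 6 libraries. The Derlin gene cup-2 was among them, from 184, 174 and 182 to 382, 343 and 393 CPM. The sensor gene atf-6 stood at 10.45, 10.5003 and 9.42 CPM in the controls and 13.2, 17.1 and 11.2 CPM in ethanol (adjusted p = 0.205).

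Stress programmes of other compartments moved less evenly. Of 19 cytosolic heat shock genes 5 rose, 3 to 4 when any 1 library was left out and 13 in the fit limited to the 6 libraries. hsp-70 was at 0.523, 0.275 and 0.562 CPM in the controls and 10.6, 8.82 and 13.2 CPM in ethanol (log2 fold change 4.57 ± 1.23 (SE), adjusted p = 0.00711), close to 8.96 ± 0.741 CPM at time zero. The small heat shock gene hsp-17 was at 2.96, 5.22 and 4.92 CPM in the controls and 25.1, 20.98 and 22.5 CPM in ethanol. hsp-16.2, of the same family, stood at 0.610, 0.618 and 0.211 CPM in the controls and 3.33, 2.99 and 4.00 CPM in ethanol (adjusted p = 0.0851); DESeq2 called it higher. Of 16 genes listed for the mitochondrial stress response the only one past the threshold was Y75B8A.4 (lonp-2), a Lon protease homologue, which fell (-1.34 ± 0.17). Whether its product acts in mitochondria was not examined here. The other Lon homologue listed, C34B2.6 (lonp-1), did not pass the threshold. The fit limited to the 6 libraries called 4 of the 16 genes higher. The mitochondrial chaperone gene hsp-6 stood at 238, 254 and 232 CPM in the controls and 346, 410.4 and 379 CPM in ethanol (adjusted p = 0.246). Of 17 superoxide dismutase, catalase, peroxiredoxin and glutathione peroxidase genes 4 fell and 1 rose, 2 in the fit limited to the 6 libraries. The rise was sod-3, a mitochondrial superoxide dismutase gene, from 0.697, 0.618 and 0.914 to 1.63, 1.74 and 1.55 CPM (log2 fold change 1.13 ± 0.27 (SE), adjusted p = 0.00244). The catalase gene ctl-2 fell, with 204, 203 and 196 CPM in the controls and 70.7, 71.7 and 71.0 CPM in ethanol (log2 fold change -1.50 ± 0.17 (SE), adjusted p = 5.95e-07). Metal-response genes were divided, 5 of 12 higher and 4 lower (1 to 2 with any 1 library left out). The cadmium-responsive gene cdr-4 went from 6.71, 7.0002 and 6.68 to 418, 339.6 and 481 CPM (log2 fold change 5.92 ± 0.41 (SE), adjusted p = 8.68e-10). The metallothionein gene mtl-1 stood at 116, 93.6 and 99.9 CPM in the controls and 102, 83.4 and 118.8 CPM in ethanol (adjusted p = 0.967), both far above 0.406 ± 0.0683 CPM at time zero.

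Genes of the core machinery gave few calls. Of 76 cytosolic ribosomal protein genes, 0 were called by edgeR's quasi-likelihood test in either direction, 1 had an unadjusted p under 0.05 and DESeq2 called 0, while the fit limited to the 6 libraries called 10 higher. Of 31 respiratory chain genes, the same test called 0, 0 had an unadjusted p under 0.05, DESeq2 called 0 and the limited fit called 1 in each direction. The proteasome gave 1 call among 32 subunits, the rise of rpn-9 (0.44 ± 0.12), which was named because it was the single call; the fit limited to the 6 libraries called 4 higher. The median log2 fold changes were 0.049 for ribosomal proteins, -0.045 for the respiratory chain and 0.029 for the proteasome.

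Transcription factors of stress responses, listed with infection response genes and a kinase, were higher in 13 of 26 cases and lower in 1 (median 0.91). The bZIP factor gene zip-10, known from the response to cold, was at 0.348, 0.412 and 0.562 CPM in the controls and 23.4, 20.8 and 28.7 CPM in ethanol (log2 fold change 5.74 ± 0.37 (SE), adjusted p = 2.78e-10). The infection response gene irg-1 rose from 0.261, 0.824 and 1.55 to 10.51, 9.38 and 8.74 CPM (log2 fold change 3.39 ± 0.35 (SE), adjusted p = 2.02e-07). irg-2 rose from 2.96, 4.26 and 3.30 to 22.3, 17.996 and 26.8 CPM (log2 fold change 2.66 ± 0.23 (SE), adjusted p = 1.77e-08). All 3 genes had separate groups. Of 195 nuclear hormone receptor genes 46 rose and 30 fell, 23.6% and 15.4% of those tested. nhr-67, a relative of the fly gene tailless, went from 0.610, 0.275 and 0.422 to 13.7, 11.4 and 16.01 CPM (log2 fold change 4.98 ± 0.36 (SE), adjusted p = 1.53e-09). nhr-115 went from 1.22, 1.098 and 2.04 to 11.2, 9.66 and 11.9 CPM. nhr-3 went from 8.19, 6.38 and 7.31 to 43.4, 40.4 and 40.7 CPM. In these receptors too all ethanol libraries lay above all controls. Epidermal antimicrobial peptide genes were higher in 9 of 20 cases and lower in 3 (5 in the fit limited to the 6 libraries), with nlp-29 at 1.92, 2.75 and 2.60 CPM in the controls and 30.3, 21.1 and 25.9 CPM in ethanol (log2 fold change 3.40 ± 0.35 (SE), adjusted p = 2.47e-07).

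Among lectins and secreted or lysosomal proteases, falls outnumbered rises, while 13.4% of all genes fell and 17.1% rose. C-type lectins fell in 39 of 133 cases (29.3%) and rose in 12 (9.02%), 21 in the fit limited to the 6 libraries. Their median was -0.16, and -0.16 with the 3 genes without counts in ethanol at their bound. Among the falls was clec-218, from 200.5, 199 and 214 to 15.5, 11.8 and 14.9 CPM (log2 fold change -3.86 ± 0.26 (SE), adjusted p = 4.58e-10). Cathepsin proteases, the digestive and lysosomal aspartic and cysteine proteases, fell in 11 of 21 cases (52.4%) and rose in 2 (9.52%). The rises numbered 4 in the fit limited to the 6 libraries. The summed level of the list was 9413 to 12380 CPM at time zero, 10350 to 11030 CPM in the controls and 5944 to 6997 CPM in ethanol. cpr-1 went from 619.5, 578 and 604 to 139, 119.8 and 127 CPM (log2 fold change -2.22 ± 0.38 (SE), adjusted p = 1.15e-04). In the opposite direction, asp-10 went from 12.28, 16.06 and 14.3 to 178, 133 and 141 CPM (log2 fold change 3.40 ± 0.22 (SE), adjusted p = 2.22e-10). Both genes had separate groups. The secreted scl and thaumatin-like genes fell in 6 of 14 cases (42.9%), among them thn-2, from 141, 137 and 128 to 29.8, 28.1 and 24.3 CPM. Saposin-like genes and lysozymes fell in 5 of 30 cases (16.7%) and rose in 4 (13.3%), near the shares of all genes. Rises numbered 2 without ethanol replicate 1, and falls 10 in the fit limited to the 6 libraries. spp-1 fell from 140.1, 130.5 and 128 to 31.2, 24.5 and 32.3 CPM (log2 fold change -2.18 ± 0.22 (SE), adjusted p = 1.25e-07).

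Markers of the intestine, the largest metabolic organ of the worm, followed the same course in part. Of 11 intestine markers 7 fell and 2 rose, and 4 fell without control replicate 1 or without ethanol replicate 3. Their sum was 4481 to 5777 CPM at time zero, 3424 to 3725 CPM in the controls and 2125 to 2495 CPM in ethanol. pept-1, the oligopeptide transporter of the gut lining, was at 340.3 ± 14.04 CPM at time zero, 42.1, 45.7 and 46.4 CPM in the controls and 4.51, 5.63 and 3.51 CPM in ethanol (log2 fold change -3.29 ± 0.20 (SE), adjusted p = 1.12e-10). The 2 members that rose were elt-2, the main GATA factor of the tissue, from 8.02, 12.22 and 11.2 to 34.2, 29.9 and 28.8 CPM (log2 fold change 1.56 ± 0.35 (SE), adjusted p = 0.00190), and act-5, the actin of the gut microvilli, from 18.03, 23.3 and 22.4 to 109.9, 83.1 and 77.9 CPM (log2 fold change 2.09 ± 0.36 (SE), adjusted p = 1.56e-04), the latter still below 957 ± 145 CPM at time zero. Whether the amount of intestinal RNA had a part in the changes of lipid, detoxification and protease genes was not tested.

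Muscle markers gave few calls. Neuron markers (11.1% higher, 18.5% lower) and epidermis markers (7.69% and 15.4%) lay nearer the shares of all genes, 17.1% and 13.4%. In muscle 1 of 24 rose, in neurons 3 of 27 rose and 5 fell (3 without control replicate 1 or 2 or ethanol replicate 2 or 3), and in the epidermis 1 of 13 rose and 2 fell. The rise in the epidermis was lost without control replicate 1 or 2 or ethanol replicate 1, and its falls numbered 1 without control replicate 1 or ethanol replicate 1 or 3. The fit limited to the 6 libraries gave 3 rises and 9 falls in muscle and 11 in neurons. The myosin gene unc-54 was at 1706, 1815 and 1851 CPM in the controls and 1386, 1319 and 1639 CPM in ethanol (adjusted p = 0.536). slo-1, the calcium-activated potassium channel gene on which ethanol is known to act in worm neurons, stood at 2.88, 2.196 and 2.46 CPM in the controls and 1.11, 1.32 and 1.31 CPM in ethanol (adjusted p = 0.101). Its relative slo-2 fell from 16.9, 13.5 and 17.9 to 6.96, 8.48 and 8.82 CPM (log2 fold change -0.99 ± 0.15 (SE), adjusted p = 2.11e-05). Summed over the 24 muscle genes, the groups overlapped, 12090 to 13170 CPM in the controls and 10710 to 12710 CPM in ethanol.

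Genes first transcribed in early embryos had the largest share of falls among the lists examined. Of 34 early zygotic genes tested 27 fell and 2 rose (13.4% of all genes fell), with a median log2 fold change of -3.13, the same with the 3 genes without counts in ethanol set at their bound. Of the 50 genes listed 2 had no counts at all, and 17 of the calls rested on under 10 counts in a group. With a filter of at least 30 counts, 17 fell and 2 rose, but the members that passed it were not counted, so no share is given. Their sum was 85.45 to 110.5 CPM at time zero, 217.1 to 270.3 CPM in the controls and 103.7 to 125.9 CPM in ethanol. Against time zero, 28 were higher in the 4 h control (22.9% of all genes were) and 4 in 4 h ethanol (19.7% of all genes). vet-1 was at 0.475 ± 0.174 CPM at time zero, 17.3, 11.4 and 14.7 CPM in the controls and 1.55, 1.18 and 1.06 CPM in ethanol (log2 fold change -3.50 ± 0.32 (SE), adjusted p = 3.46e-08). vet-2 was at 9.44 ± 1.90 CPM at time zero, 53.1, 41.0 and 49.9 CPM in the controls and 13.2, 10.8 and 13.7 CPM in ethanol (log2 fold change -1.93 ± 0.27 (SE), adjusted p = 1.13e-05). The exceptions sdz-35 (6.76 ± 0.66) and sdz-8 (1.27 ± 0.20), named after their values were seen, were higher. Later embryonic fate factors did not share this course: 8 of 28 rose (5 without control replicate 1 or ethanol replicate 1 or 2) and 4 fell, with the Hox gene ceh-13 at 6.27, 5.01 and 6.32 CPM in the controls and 14.7, 12.5 and 17.97 CPM in ethanol. hch-1, which encodes the hatching enzyme, was at 0.0871, 0.0686 and 0.0703 CPM in the controls and 0.0740, 0 and 0.0817 CPM in ethanol, at or near 0 in all 6 libraries.

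Sperm genes were higher with ethanol, and few oocyte genes were called. Of 29 major sperm protein genes 19 rose (65.5%, median 0.63), against 17.1% of all genes. Of 52 other sperm genes 29 rose (55.8%, median 0.75). msp-152 went from 48.4, 53.6 and 47.1 to 83.6, 86.4 and 91.3 CPM (log2 fold change 0.81 ± 0.12 (SE), adjusted p = 3.36e-05). ssp-31 went from 7.58, 8.24 and 8.36 to 19.7, 14.7 and 17.5 CPM (log2 fold change 1.098 ± 0.24 (SE), adjusted p = 0.00137). Neither had overlapping groups. Both lists had been higher at time zero: major sperm proteins summed to 2018 to 3072 CPM there, 999.5 to 1077 CPM in the 4 h controls and 1570 to 1625 CPM in ethanol. Copies of msp genes are nearly identical, so their values are not independent. Oocyte and eggshell genes gave 1 rise and 2 falls among 24 (4.17% and 8.33%, against 17.1% and 13.4% of all genes). When any 1 library was left out, 1 fell. In a fit of the 4 h libraries without ethanol replicate 2, a setting chosen after the data were seen, 18 fell. The rise was cpg-9, a chondroitin proteoglycan gene, from 10.9, 15.0 and 15.8 to 138, 99.1 and 123 CPM (log2 fold change 3.10 ± 0.37 (SE), adjusted p = 2.14e-06), close to 152 ± 31.1 CPM at time zero. Of 6 yolk protein genes the single call was the rise of vit-1, from 320.4, 512 and 471 to 976, 711 and 1147 CPM (log2 fold change 1.12 ± 0.34 (SE), adjusted p = 0.0148), lost without control replicate 1 (adjusted p = 0.0772) or ethanol replicate 3 (adjusted p = 0.0669). vit-2 stood at 23785, 24459 and 25737 CPM in the controls and 17937, 13654 and 22569.5 CPM in ethanol (adjusted p = 0.372). In the fit limited to the 6 libraries 3 yolk protein genes were lower. The vit genes share much sequence. DNA replication genes gave 4 falls among 33. The falls numbered 5 without ethanol replicate 2, 1 or 2 without any other single library of the 6, and 7 with DESeq2. In the fit of the 4 h libraries alone that also left out ethanol replicate 2, chosen after the data were seen, 24 fell.

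**Figure D3:**
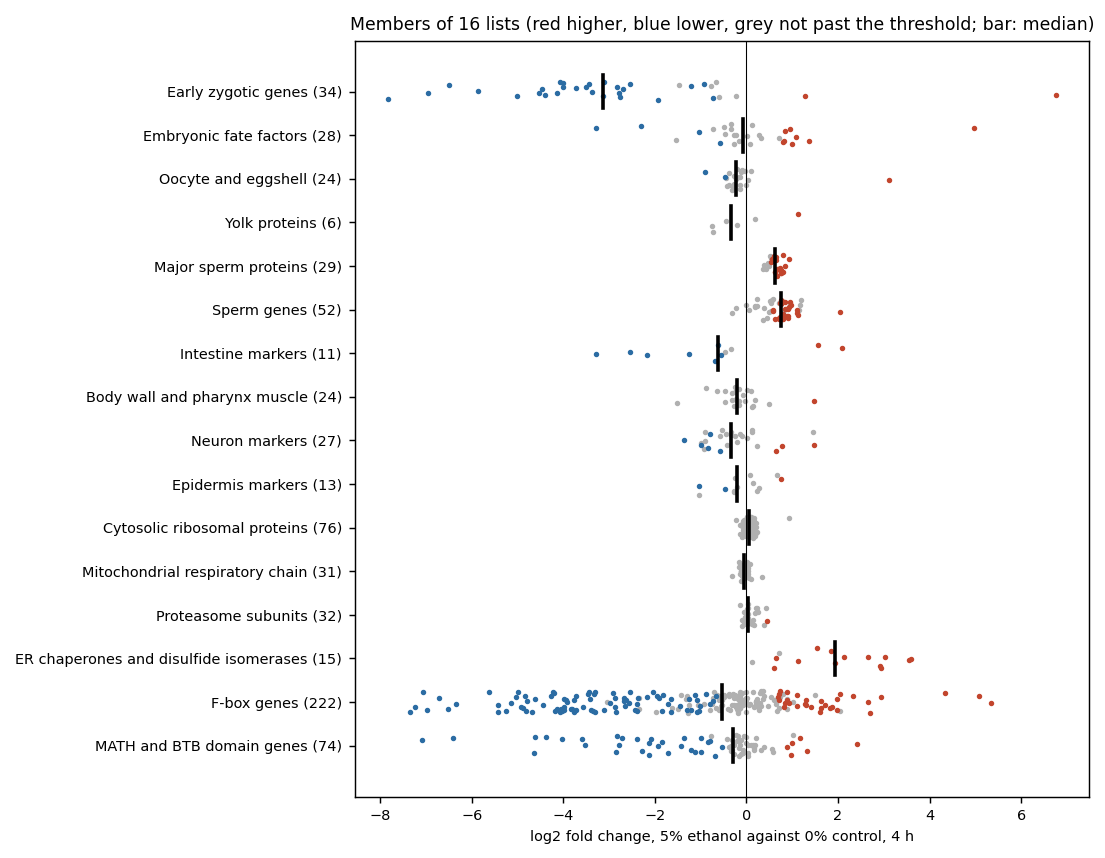
Log2 fold change with ethanol at 4 h (horizontal axis) of each member of 16 gene lists, 1 point per gene, red where higher, blue where lower and grey where the threshold was not passed, with a black bar at the list's median and the number tested in brackets. ER chaperones lie to the right (median 1.93), early zygotic genes to the left (median -3.13), sperm lists in a narrow band right of 0, and ribosomal, respiratory chain and proteasome genes at 0.

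Large families of substrate adaptors for protein degradation were also lower. Products of F-box genes bring proteins to ubiquitin ligases. Against 13.4% of all genes lower and 17.1% higher, F-box genes fell in 88 of 222 cases (39.6%) and rose in 31 (14%, median -0.54). With a filter of 30 counts 43 fell and 24 rose, but the members that passed it were not counted, so no share is given. Of the 348 F-box genes listed 21 had no counts, and 68 of the calls had under 10 counts in a group. The better-measured members included fbxa-6, from 11.2, 10.3 and 10.3 to 2.81, 2.57 and 3.59 CPM (log2 fold change -1.82 ± 0.26 (SE), adjusted p = 1.42e-05). Among the rises, fbxa-163 went from 0.784, 0.480 and 0.703 to 26.9, 25.6 and 27.2 CPM (log2 fold change 5.33 ± 0.30 (SE), adjusted p = 4.88e-11). Genes with MATH or BTB domains fell in 30 of 74 cases (40.5%) and rose in 6 (8.11%), with a median of -0.30. The rises numbered 3 without control replicate 3 or ethanol replicate 3 and 10 in the fit limited to the 6 libraries. math-38 was at 9.41, 11.3 and 11.5 CPM in the controls and 0.666, 0.208 and 0.408 CPM in ethanol (log2 fold change -4.63 ± 0.35 (SE), adjusted p = 3.11e-09). math-24 was at 16.47, 11.7 and 11.5 CPM in the controls and 3.48, 2.99 and 3.92 CPM in ethanol. Against time zero, 132 of 222 F-box genes were higher in the 4 h control (22.9% of all genes were) and 58 in 4 h ethanol (19.7% of all genes). For the 74 MATH and BTB genes these counts were 34 and 13. In both families the ethanol counts lay nearer the share of all genes than the control counts did. Many of these genes are recent duplicates, which makes single counts uncertain.

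The cuticle and its regulators showed single large changes rather than a common direction at 4 h. Of 118 col genes 21 rose and 18 fell, near the background, with 8 to 11 falls when any library but ethanol replicate 1 was left out, 13 rises without ethanol replicate 1 and 38 in the fit limited to the 6 libraries. Yet the summed col level was 41070 to 42050 CPM in the controls and 28670 to 36130 CPM in ethanol, lower in all 3 ethanol libraries. col-94 fell from 95.5, 116 and 114 to 24.8, 20.4 and 18.4 CPM (log2 fold change -2.35 ± 0.42 (SE), adjusted p = 1.99e-04). col-146 rose from 2.88, 4.87 and 2.67 to 21.1, 16.6 and 20.0 CPM (log2 fold change 2.46 ± 0.28 (SE), adjusted p = 7.78e-07). The furrow collagen gene dpy-7 was at 0.174, 0.137 and 0.914 CPM in the controls and 0.444, 0.625 and 0.408 CPM in ethanol (adjusted p = 0.819), with overlapping groups. Hedgehog-related and patched-related genes, which take part in molting, rose in 13 of 60 cases (21.7%) and fell in 6 (10%). These shares lay near those of all genes, 17.1% and 13.4%. The rises numbered 7 or 8 when control replicate 1 or 3 or ethanol replicate 1 was left out. ptr-14 went from 16.3, 14.5 and 19.8 to 97.2, 90.5 and 88.5 CPM (log2 fold change 2.45 ± 0.19 (SE), adjusted p = 2.84e-09). Genes of molting and the apical matrix gave 6 rises and 5 falls among 31, 8 falls in the fit limited to the 6 libraries. sym-1, a gene for a secreted leucine-rich repeat protein, rose from 1.92, 1.24 and 1.69 to 21.9, 22.8 and 21.7 CPM (log2 fold change 3.78 ± 0.38 (SE), adjusted p = 1.38e-07). mlt-7, a peroxidase gene needed for molting, fell from 48.4, 58.1 and 52.2 to 16.36, 15.4 and 12.4 CPM (log2 fold change -1.84 ± 0.49 (SE), adjusted p = 0.00661).

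**Figure D4:**
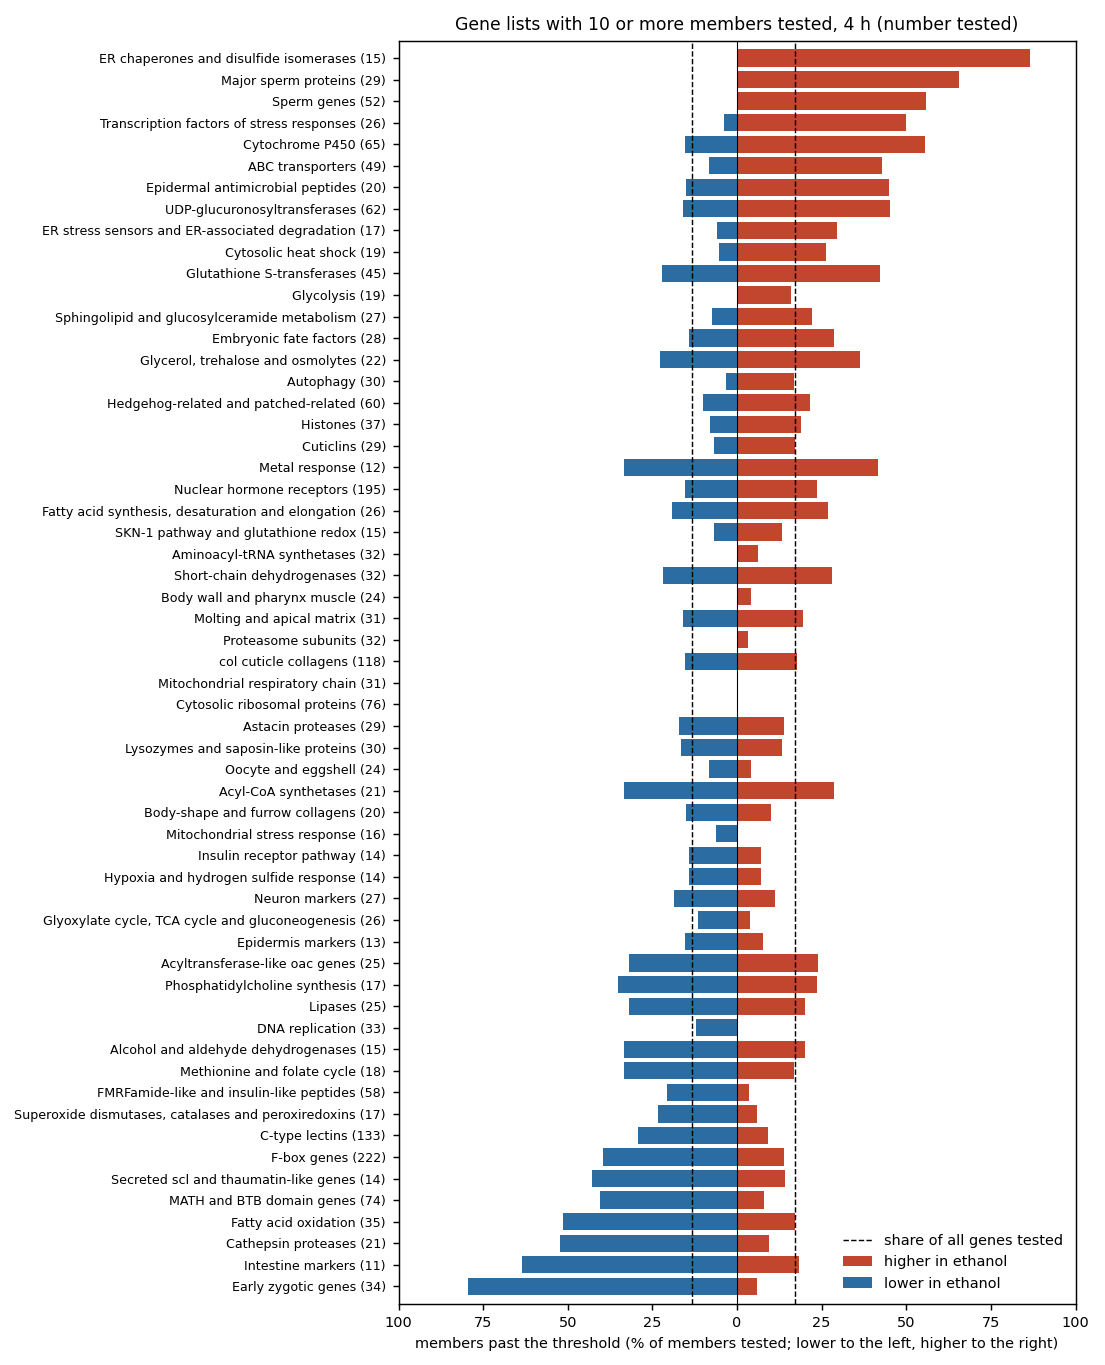
Share of tested members that were higher (red, to the right) or lower (blue, to the left) with ethanol at 4 h, in % of members tested, for each list with 10 or more members tested (number in brackets). The dashed lines mark the shares of all genes, 17.1% higher and 13.4% lower; ER chaperones reach 86.7% higher and early zygotic genes 79.4% lower.

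Autophagy genes rose at a share close to the background (5 of 30 higher, 1 lower; 12 higher and 3 lower in the fit limited to the 6 libraries), and single genes moved in both directions. mxl-3, a repressor of lysosomal lipase genes, went from 5.23, 5.28 and 5.83 to 58.7, 53.8 and 48.4 CPM (log2 fold change 3.30 ± 0.18 (SE), adjusted p = 3.68e-11), against 116 ± 4.72 CPM at time zero. epg-2, an adaptor of embryonic autophagy, fell from 61.8, 46.5 and 56.1 to 20.5, 19.2 and 17.8 CPM (log2 fold change -1.51 ± 0.20 (SE), adjusted p = 4.92e-06). In the insulin receptor pathway 1 gene of 14 rose and 2 fell. The falls numbered 1 without control replicate 2 or 3 or ethanol replicate 1 or 3, 4 with DESeq2 and 5 in the fit limited to the 6 libraries. ftt-2, an adaptor that binds the factor DAF-16 in the cytoplasm, rose from 196, 205 and 202 to 1106, 1029 and 1051 CPM (log2 fold change 2.40 ± 0.18 (SE), adjusted p = 1.62e-09). The kinase gene sgk-1 fell from 49.1, 45.3 and 46.9 to 16.3, 16.398 and 14.5 CPM (log2 fold change -1.58 ± 0.14 (SE), adjusted p = 1.58e-08). daf-16 itself stood at 78.1, 78.7 and 71.3 CPM in the controls and 57.3, 79.8 and 59.0 CPM in ethanol (adjusted p = 0.741).

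The 1 h and 20 h pairs share no library with the 4 h pair, so calls can be set against each other. At 1 h, 757 genes were higher (4.94%) and 264 lower (1.72%), 6.67% in all. Of the 4 h rises, 479 were also called higher at 1 h, which is 18.3% of the 4 h and 63.3% of the 1 h rises, and 166 genes were lower at both times (8.09% and 62.9%). At 20 h, 3833 genes were higher (25%) and 4309 lower (28.1%), with 1726 rises in common (66.1% of those at 4 h, 45% of those at 20 h) and 1280 falls (62.4% and 29.7%). Some genes were called in opposite directions, each set at a share below that of all genes at 4 h (17.1% higher, 13.4% lower). Among the 1 h rises 88 (11.6%) were lower at 4 h, and among the 1 h falls 23 (8.71%) were higher at 4 h. The 20 h falls held 316 genes that were higher at 4 h (7.33%), and the 20 h rises 166 that were lower at 4 h (4.33%).

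A test of the difference itself called 2012 genes (13.1%; 6.74% more positive and 6.4% more negative at 4 h) between the 4 h and 1 h effects and 4952 (32.3%) between the 4 h and 20 h effects. Between 1 h and 4 h the ethanol effect grew for fmo-2, from 3.08 ± 0.41 to 9.67 ± 0.54 on the log2 scale (difference 6.58 ± 0.67, adjusted p = 1.11e-06), and for F08G2.5, from 0.95 ± 0.46 to 7.81 ± 0.42. It changed direction for C48B4.1, from 0.96 ± 0.26 to -5.12 ± 0.31, and for kmo-1, the kynurenine monooxygenase gene of tryptophan breakdown, from 1.64 ± 0.33 to -4.03 ± 0.38 (difference -5.67 ± 0.51, adjusted p = 1.61e-07). For cyp-37B1 the effect was 0.18 ± 0.62 at 1 h and -6.50 ± 0.43 at 4 h. ER chaperones belonged to the genes whose effect grew, with 12 of 15 past the threshold of the difference from 1 h (6.74% of all genes) and 8 past that from 20 h (16.9% of all genes): the median log2 fold change of the list, 1.93 at 4 h, stood at 0.31 at 1 h and 0.89 at 20 h. For dnj-27 the effect of 3.56 ± 0.19 at 4 h compares with 0.28 ± 0.18 at 1 h and 0.14 ± 0.17 at 20 h. It was larger at 4 h than at 1 h by 3.27 ± 0.26 (adjusted p = 2.38e-08) and than at 20 h by 3.41 ± 0.25 (adjusted p = 4.80e-09).

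The largest positive differences between 4 h and 20 h included genes of the cuticle and apical matrix; of the 5 named here, 4 were called higher at 4 h and lower at 20 h, and the lipocalin gene lpr-3 had effects of 0.29 ± 0.91 at 4 h and -7.96 ± 0.72 at 20 h. suro-1, a carboxypeptidase gene needed for cuticle shape, had an effect of 4.83 ± 0.30 at 4 h and -3.86 ± 0.31 at 20 h on the log2 scale (difference 8.69 ± 0.43, adjusted p = 2.22e-11). The patched-related gene ptr-4 changed from 2.32 ± 0.25 to -6.25 ± 0.23, sym-1 from 3.78 ± 0.38 to -5.74 ± 0.40, and skpo-2, a peroxidase gene, from 5.66 ± 0.85 to -5.12 ± 0.79. At 4 h, suro-1 stood at 4.27, 2.61 and 4.36 CPM in the controls and 109, 101.2 and 108 CPM in ethanol. Of 118 col genes 56 had a more positive effect at 4 h than at 20 h (16.9% of all genes did) and 4 a more negative one. In the other direction, fat-5 was higher by 2.56 ± 0.24 at 4 h and by 8.90 ± 0.37 at 20 h, the fatty acid-binding protein gene far-3 changed from -1.71 ± 0.37 to 5.02 ± 0.40, and Y50D4B.4 from -1.51 ± 0.15 to 5.30 ± 0.18. Major sperm proteins had a more positive effect at 20 h in 28 of 29 cases (15.4% of all genes), with a median of -0.20 at 1 h, 0.63 at 4 h and 2.93 at 20 h.

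**Figure D5:**
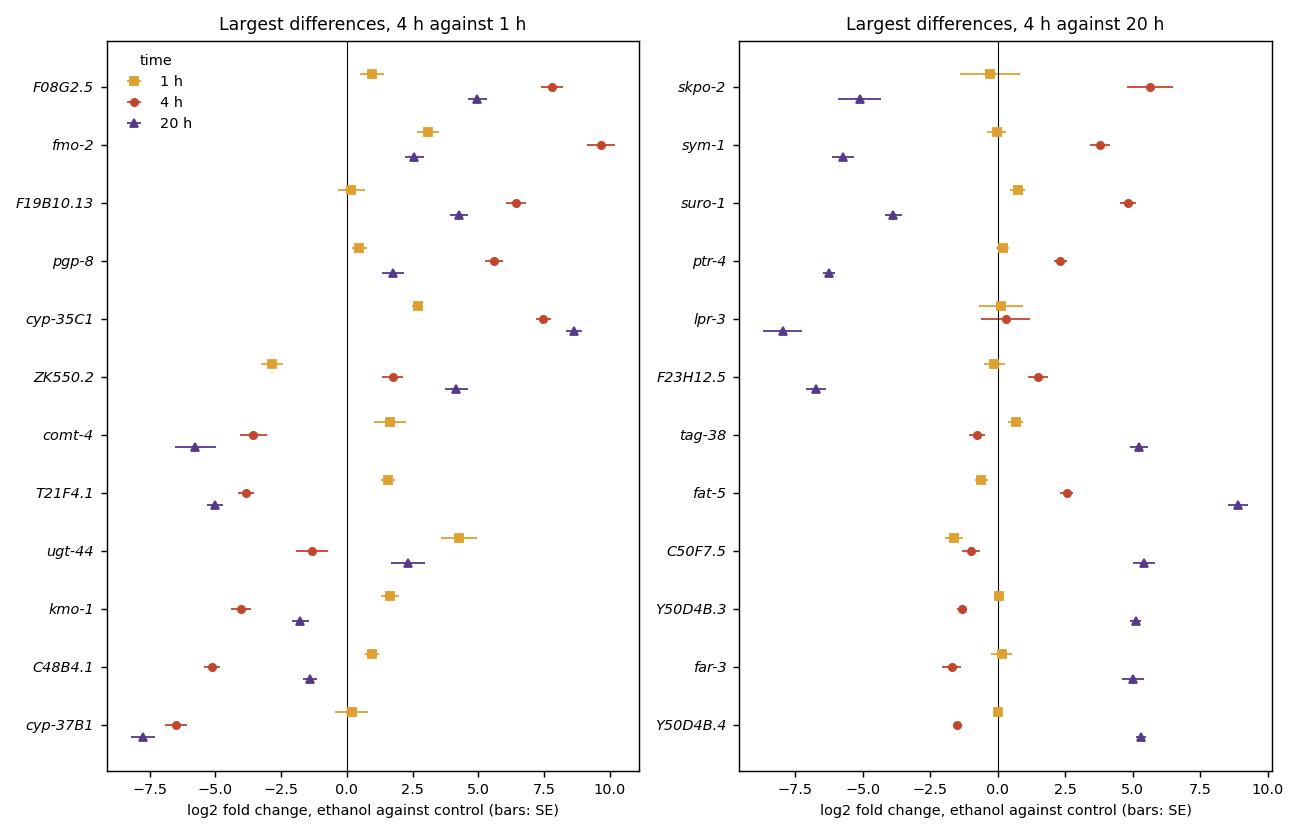
Log2 fold change with ethanol (horizontal axis, bars are SE) at 1 h (squares), 4 h (circles) and 20 h (triangles) for the 12 genes with the largest differences between 4 h and 1 h (left) and the 12 between 4 h and 20 h (right). On the left fmo-2 moves from 3.08 to 9.67 and kmo-1 from 1.64 to -4.03; on the right suro-1 stands at 4.83 at 4 h and -3.86 at 20 h.

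Of the 4664 genes past the threshold, 57 had no counts in one 4 h group, 29 without counts in the controls and 28 without counts in ethanol. The lipase-related gene lips-11 was at 0, 0 and 0 CPM in the controls and 20.8, 21.1 and 23.03 CPM in ethanol, at least 289.9-fold higher if the 3 controls together are set to a floor of 3 counts, and the P450 gene cyp-35A1, at 5.48, 4.66 and 6.13 CPM in ethanol, was at least 72.2-fold higher. R10D12.6 was at least 29.8-fold higher. K12B6.11, at 2.88, 2.06 and 2.53 CPM in the controls, was at least 32.9-fold lower in ethanol, and sdz-16, at 2.35, 1.92 and 2.25 CPM, at least 28.9-fold lower. These bounds cover counting error only.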

How the data were processed

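PolyA RNA of whole worms had been sequenced, and the deposited table holds raw counts per gene for 22 libraries in 7 groups, made by the authors. The submitters' processing notes name Trimmomatic 0.39, fastp 0.23.2, STAR 2.7.9a, featureCounts, Subread 2.0.3 and the genome build ce10; neither the use of strand nor the treatment of reads that fit several genes is stated in these sources. Genes were filtered with filterByExpr of edgeR 4.0.16 in R 4.3.3 (minimum count 10), which left 15310 genes and 99.94% of the counts. The quasi-likelihood model of edgeR, with TMM factors, had 1 mean for each of the 7 groups, so that all libraries share 1 estimate of the spread. Contrasts were two-sided, with p-values adjusted by the Benjamini-Hochberg method over all genes tested and a threshold of 0.05. CPM values were computed from the counts with the TMM factors.

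The members and gene lists were chosen with earlier results of these data known, and some list names were then matched to those of the table through RefSeq symbols. Named genes are the 12 largest rises and falls, up to 3 members of each list with the largest change and the list's reference genes, the 6 largest differences in each direction between times, and the 5 largest folds among genes without counts in a group. Except for reference genes, the largest changes and the list members had to pass the threshold and have separate groups. They also needed a mean over the 6 libraries of 5 CPM or more and no group under 10 counts. For differences between times, the threshold was that of the difference, mean and counts covered all groups of both times, and separate groups were not required. Genes without counts in a group only had to pass the threshold. The script was tested on simulated data. Alternatives were DESeq2 1.42.0, its size factors, other count filters, a fit of the groups compared only, a replicate block and single libraries left out. Depth was 10908205 to 14176432 counts per 4 h library.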

Additional observations from a re-analysis of the deposited data

Results flagged for a closer look

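The ethanol effect differed between times in the test of the difference itself for 2012 genes between 4 h and 1 h and for 4952 genes between 4 h and 20 h, and the genes below are the largest such differences on the log2 scale, each past an adjusted p of 0.05 (edgeR's quasi-likelihood test, Benjamini-Hochberg adjusted).

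More positive at 4 h than at 1 h were F08G2.5 (difference 6.86), fmo-2 (6.58), F19B10.13 (6.26), the ABC transporter gene pgp-8 (5.11), the P450 gene cyp-35C1 (4.79), ZK550.2 (4.58) and, from the ER chaperones, dnj-27 (3.27). More negative at 4 h were the methyltransferase gene comt-4 (-5.20), T21F4.1 (-5.38), the UDP-glucuronosyltransferase gene ugt-44 (-5.61), kmo-1 (-5.67), C48B4.1 (-6.08) and cyp-37B1 (-6.68). For ugt-44 the effect was 4.27 ± 0.68 at 1 h and -1.34 ± 0.61 at 4 h, and for comt-4 it was 1.64 ± 0.62 and -3.57 ± 0.51.

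Against 20 h, the effect at 4 h was more positive for the peroxidase gene skpo-2 (10.78), sym-1 (9.52), suro-1 (8.69), ptr-4 (8.57), the lipocalin gene lpr-3 (8.26), F23H12.5 (8.24) and dnj-27 (3.41). It was more negative for tag-38 (-5.99), the desaturase gene fat-5 (-6.33), C50F7.5 (-6.41), Y50D4B.3 (-6.44), far-3 (-6.73) and Y50D4B.4 (-6.81). lpr-3, a protein of the apical extracellular matrix, had an effect of 0.29 ± 0.91 at 4 h and -7.96 ± 0.72 at 20 h.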

How the results depend on the processing

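The 4664 genes past the threshold at 4 h became 4848 with DESeq2, 4644 with its size factors, 4398 without a filter, 4173 with a minimum count of 30, 3843 to 4040 with single libraries left out and 6817 in a fit of the 6 libraries alone. A fit of the 4 h libraries without ethanol replicate 2, chosen after the data were seen, gave 8112 (4153 higher and 3959 lower); its estimate of the spread comes from 5 libraries. With single libraries left out, the difference from 1 h gave 1565 to 2258 genes, that from 20 h 4265 to 5128, the control against time zero 5814 to 6919 and ethanol against time zero 4703 to 5854. Whether more genes were higher or lower turned with the setting where both counts lay close: for the difference from 1 h from 1032 higher and 980 lower to 984 and 992 with DESeq2 size factors and 781 and 891 without a filter, for the control against time zero from 3506 and 3562 to 3479 and 3440 without time zero replicate 2, and for ethanol against time zero from 3013 and 2989 to 2667 and 3148 with DESeq2 size factors. The replicate numbers did not pair the libraries: same-numbered control and ethanol libraries correlated at -0.0618, -0.0188 and -0.000813 in their deviations from group means. With the number as a replicate block the counts were 4563 at 4 h (2594 higher, 1969 lower), 1895 for the difference from 1 h (923 higher, 972 lower) and 4767 for that from 20 h. Among genes named above as not past the threshold, the block called fat-7 and hsp-16.2 higher and slo-1 and vit-2 lower. Among all genes chosen for naming, the fit limited to the 6 libraries called 13 that the main fit did not. A gene given as not past the threshold was therefore not shown to be unchanged. Depth limits the 524 genes under 10 counts in a group, and duplicated families limit what single F-box, msp, P450 and lectin values mean.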

Other observations

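Smaller lists not described above gave few calls or calls in both directions. Secreted signalling peptides of the FMRFamide-like and insulin-like families were mostly uncalled, with 12 of 58 lower and 2 higher (1 without control replicate 3, 0 without ethanol replicate 3 and 6 in the fit limited to the 6 libraries), against 13.4% and 17.1% of all genes; flp-10 had a log2 fold change of -1.07 ± 0.15 and ins-17 one of -0.88 ± 0.18. Acyltransferase-like oac genes were divided, 6 of 25 higher and 8 lower (4 with a minimum count of 30), while their summed level was 93.95 to 103.5 CPM in the controls and 210.9 to 261.5 CPM in ethanol; oac-14 had a log2 fold change of 6.05 ± 0.36. Astacin proteases gave 4 rises and 5 falls among 29 (2 rises with a minimum count of 30), and their sum was 326.1 to 354.1 CPM in the controls and 167 to 192.5 CPM in ethanol. The SKN-1 pathway gave 2 rises and 1 fall among 15 genes (1 rise without control replicate 3, 4 in the limited fit), with gcs-1, which makes the glutathione precursor, at 77.1, 75.3 and 70.1 CPM in the controls and 61.2, 88.0 and 52.8 CPM in ethanol (adjusted p = 0.747). The remaining lists held small counts that moved with single libraries or settings. Of 32 aminoacyl-tRNA synthetases 2 rose, 1 with any 1 library left out and 9 in the fit limited to the 6 libraries. Of 37 histone genes 7 rose, 4 without ethanol replicate 3, and 3 fell, 1 without control replicate 1 or ethanol replicate 2 or 3. Of 29 cuticlins 5 rose, 3 without ethanol replicate 1 or 3 and 9 in the limited fit, and 2 fell. Of 20 body-shape collagens 2 rose, 1 without control replicate 1 or 3 or ethanol replicate 1, and 3 fell, 1 without control replicate 3 or ethanol replicate 2 or 3. Of 14 genes of the hypoxia and hydrogen sulfide response 1 rose, a call lost without replicate 1 or 2 of either group, and 2 fell, 1 without any 1 control or without ethanol replicate 3.

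By chromosome, as the Ensembl annotation places the 97.5% of tested genes whose names matched, calls were unevenly spread. On the X chromosome 15.6% of 2108 tested genes were higher and 19.8% lower, whereas on chromosome I 15.2% of 2440 were higher and 8.69% lower and on chromosome V 21.5% of 2948 were higher and 15.1% lower.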
